A study of Oryza sativa Japonica Group with 4 samples.

Results

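Class III peroxidases are secreted haem enzymes of plants, and the deposited expression table of drought-treated rice leaves listed 96 genes under the words and names used to choose them, of 33744 genes in all. A gene was taken where its description named a class III peroxidase, a haem or heme peroxidase or a peroxidase precursor, or where its name began with prx, POX or OsPrx. Rows naming ascorbate, glutathione or thioredoxin were left out, which removed 2 genes. Description and name both chose 31 of the genes. The label held for 93 of them. The other 3 carry the enzyme number of another family: the peroxiredoxins OsPrxII (Os01g0675100) and OsPrx (Os06g0196300), and OsAPx6 (Os12g0178100), an ascorbate peroxidase. They are given once below and kept out of the counts, which cover the 93 class III peroxidases. Of these 93, 69 carry the enzyme number of class III peroxidases and 24 carry none.

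Leaves came from rice seedlings (Oryza sativa, Japonica group) aged 14 d after 6 h of drought. OE13-2KR/oswox13-1 is labelled drought sensitive, and OE13, the line it was set against, is labelled drought resistant. Each line had 2 libraries, all from drought-treated leaves. No wild-type or watered leaves are among the samples, and nothing in the labels says whether the libraries of a line came from separate plants. The labels do not explain 2KR or name a promoter, and the effects of the 2KR form and of the oswox13-1 background, both carried by OE13-2KR/oswox13-1 to go by its name and neither by OE13, cannot be told apart here.

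Class III peroxidases pass electrons from phenolic compounds to hydrogen peroxide. In the plant cell wall they couple monolignols into lignin and cross-link wall polymers, and they can also release reactive oxygen species. The family is large in grasses, and many of its genes stand side by side in tandem arrays. Gene ontology terms that played no part in the choice place 79 of the 93 genes in the extracellular region and 50 in the plant-type cell wall, and tie 90 to the response to oxidative stress.

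Levels are FPKM, fragments scaled to gene length and library total, as deposited. FPKM summed to between 931335 and 941593 per library, and the number of reads is unknown. The gene generally known as OsWOX13 (Os01g0818400, listed as OsWOX8) had 27.1 and 49.9 FPKM in OE13-2KR/oswox13-1, against 22.02 and 75.6 FPKM in OE13, so it did not separate the lines. The leaf label was checked with 11 genes for light-harvesting proteins and the small Rubisco subunit. Their summed FPKM was 5184 and 2308 in OE13-2KR/oswox13-1, against 7632 and 3872 in OE13, and the lines overlapped. A fold change is OE13-2KR/oswox13-1 over OE13 on the log2(FPKM + 1) scale, on which gaps of low genes look smaller than they are. Tests are limma with trended variance over the 20174 genes with a mean of at least 1 FPKM, with Benjamini-Hochberg adjustment over all of them, two-sided, at a threshold of 0.05. These p-values measure the spread between libraries, which may be technical. In bulk leaf, fewer cells of a type and less RNA per cell cannot be told apart.

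Most class III peroxidase genes were barely detected in these leaves, and a few carried the family's transcripts. Of the 93, 52 had a mean under 1 FPKM over the 4 libraries, 21 lay between 1 and 10, 17 between 10 and 100, and 3 at 100 or more. The 3 highest were prx86 (Os06g0547400, chromosome 6, 20705378 to 20706934, minus strand), described as similar to peroxidase P7, prx61 (Os04g0688300, chromosome 4, 35207157 to 35208610, minus strand) and prx16 (Os01g0327400, chromosome 1, 12578189 to 12582256, plus strand). Together they made up 65.3% and 70.5% of the summed class III level in the OE13-2KR/oswox13-1 libraries, against 67.9% and 69.2% in the OE13 libraries. Of the 52 low genes, 5 were listed at 0 in every library: prx5, prx66, prx69, prx79 and prx82. The highest single value among the 52 was 2.88 FPKM, for prx87 in OE13 replicate 2.

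The most abundant peroxidase, prx86, stood at 575 and 369 FPKM in OE13-2KR/oswox13-1, against 608 and 1065 FPKM in OE13. The lines did not overlap, but replicate 1 of each line lay close together. On the log2 scale it differed by -0.80 (SE 0.37, limma adjusted p = 0.291), and by -1.21 to -0.40 with 1 library left out. For prx61 the values were 424 and 534 FPKM in OE13-2KR/oswox13-1, against 423 and 731 FPKM in OE13, an overlap of the lines (-0.22, SE 0.32, limma adjusted p = 0.710). Without OE13 replicate 2 the sign of prx61 turned, to 0.17. For prx16 they were 138 and 125 FPKM in OE13-2KR/oswox13-1, against 161 and 257 FPKM in OE13 (-0.63, SE 0.27, limma adjusted p = 0.273). Without OE13 replicate 2 the difference of prx16 was -0.29, and without OE13 replicate 1 it was -0.97. In all 3 genes OE13 replicate 2 was the highest library.

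The other genes among the 8 of highest mean level did not share one direction. The gene prx59 had 74.7 and 40.5 FPKM in OE13-2KR/oswox13-1, against 72.05 and 135 FPKM in OE13. For prx20, described as similar to Arabidopsis peroxidase 12, the values were 49.8 and 44.6 FPKM in OE13-2KR/oswox13-1, against 37.02 and 53.96 FPKM in OE13. The gene prx62 had 26.4 and 50.8 FPKM in OE13-2KR/oswox13-1, against 47.5 and 51.8 FPKM in OE13. The lines overlapped in all 3 of these genes, with log2 fold changes of -0.83, 0.07 and -0.43 (limma adjusted p of 0.326, 0.879 and 0.490). With 1 library left out prx59 ran from -1.28 to -0.38, and the signs of prx20 and prx62 turned. The remaining pair of the 8, prx30 and prx71, separated the lines and is described below.

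Summed over the 93 genes, the class III peroxidase level was 1741 and 1459 FPKM in OE13-2KR/oswox13-1, against 1754 and 2966 FPKM in OE13. Replicate 1 of each line held about the same sum, and OE13 replicate 2 stood well above the other 3 libraries. Over the 41 tested genes the sums averaged 1588 ± 199 FPKM in OE13-2KR/oswox13-1, against 2346 ± 853 FPKM in OE13 (SD, n = 2 each), a ratio of 0.677. The exact permutation test, two-sided, gave p = 0.33, the smallest that 2 against 2 libraries allow. On the log2 scale the ratio of the sums was -0.56 with all libraries and -0.13 without OE13 replicate 2. Most of the difference in summed level therefore lay in 1 library.

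**Figure D1:**
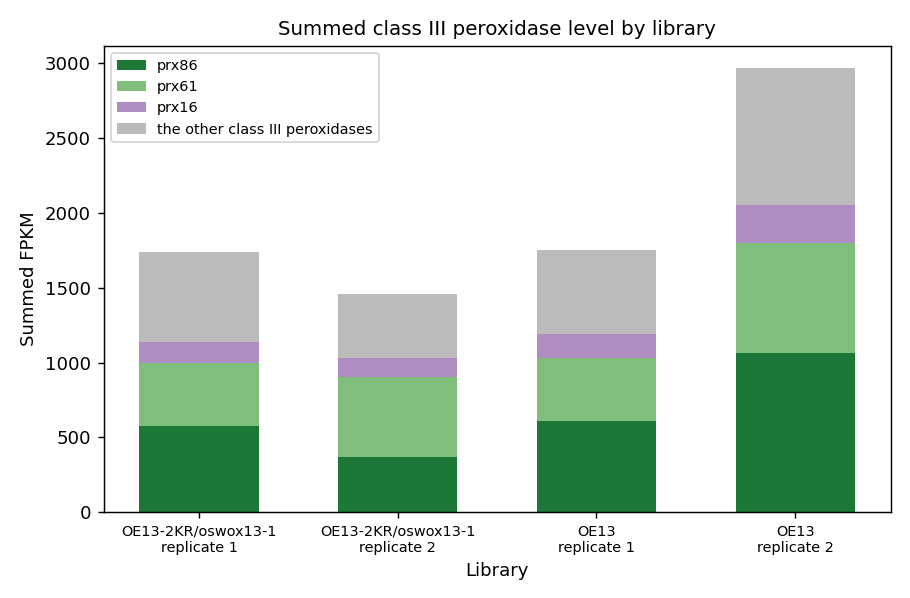
Summed FPKM of the 93 class III peroxidases (vertical axis) in each of the 4 libraries (horizontal axis), with prx86, prx61 and prx16 as coloured parts of each bar. OE13 replicate 2 reaches 2966 FPKM and the other libraries lie between 1459 and 1754 FPKM.

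No class III peroxidase passed the adjusted test. In the comparison of the lines 1 of 20174 genes passed it, or 0.00496%, and 0 of the 41 peroxidases that were tested. The lowest adjusted p among the 41 was 0.187. An unadjusted p under 0.05 was reached by 10 of the 41 (24.4%) in the lower direction and by 2 (4.88%) in the higher one, beside 12% lower and 8% higher among all genes tested. In either direction that makes 12 of 41 (29.3%), beside 20% of all genes tested. Of the 41, 31 had a negative and 10 a positive log2 fold change. The negative share was 75.6%, beside 56.8% of all genes tested. The median log2 fold change was -0.33 for the 41 and -0.08 for all genes tested. The lines did not overlap for 17 of the 41 in the lower direction (41.5%, beside 32.8% of all genes tested) and for 2 in the higher direction (4.88%, beside 23.4%).

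These counts describe genes that passed a filter on the mean. For 5 of the 41 the mean of OE13-2KR/oswox13-1 was under 1 FPKM, so that they passed through OE13, and 3 of these 5 (prx32, prx97 and prx27) were among the 10 lower genes. Without a filter, 54 of the 93 had a negative and 34 a positive log2 fold change. Their median was -0.06, beside -0.02 for all genes. At the unadjusted threshold 9 of the 93 were lower and 2 higher, beside 2763 lower and 2043 higher among all 33744 genes. Over all 93 the lines did not overlap for 23 in the lower direction (24.7%, beside 27.3% of all genes in the table) and for 9 in the higher direction (9.68%, beside 18.3%). In the fit without a filter 6 of the 12 genes kept an unadjusted p under 0.05, and prx71, prx89, prx72, prx75, POX8.1 and prx30 did not, at 0.0514 to 0.0999. With quantile normalisation 25 of the 41 were negative and 16 positive, and the median was -0.23, beside 0.034 for all genes. Over all genes the unadjusted threshold was passed by 2415 lower and 1613 higher as deposited, by 1903 lower and 2125 higher with quantile normalisation, and by 2045 lower and 2006 higher with median ratio rescaling. For the peroxidases those scalings gave 13 and 11 lower, and 2 higher each. When OE13 replicate 1 was left out, the median of the 41 was -0.62, beside -0.08 for all genes tested. With each of the other libraries left out it lay between -0.46 and -0.26, beside -0.11 to -0.05 for all genes tested.

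**Figure D2:**
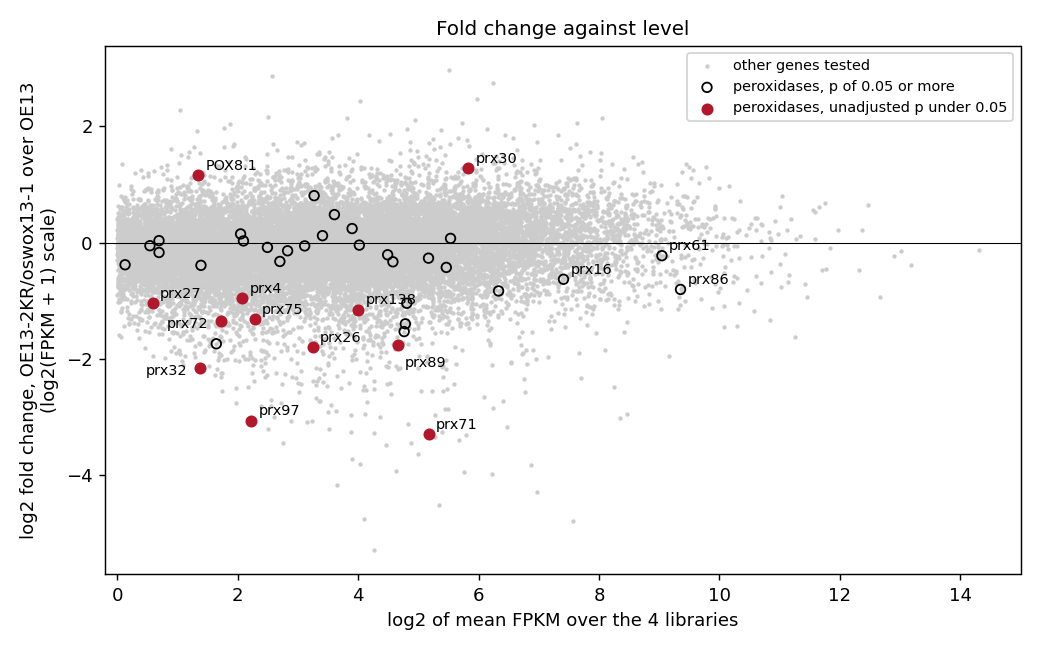
Log2 fold change, OE13-2KR/oswox13-1 over OE13 on the log2(FPKM + 1) scale (vertical axis), against the log2 of the mean FPKM (horizontal axis) for the 20174 genes tested. Filled points are the 12 class III peroxidases with an unadjusted p under 0.05, of which 10 lie below 0 and 2 above, and open points are the other tested class III peroxidases.

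Among the 10 lower genes the widest gap on the log2(FPKM + 1) scale was that of prx71 (Os05g0135500, chromosome 5, 2080597 to 2082747, plus strand), described as a haem peroxidase family protein. It stood at 11.7 and 1.75 FPKM in OE13-2KR/oswox13-1, against 32.9 and 98.1 FPKM in OE13. The lines did not overlap, and the libraries of each line differed widely. On the log2 scale the fold change came to -3.30 (SE 0.85, limma adjusted p = 0.194). With 1 library left out it lay between -4.40 (OE13-2KR/oswox13-1 replicate 1) and -2.20 (OE13-2KR/oswox13-1 replicate 2), and the unadjusted p between 0.00258 and 0.0377. The order of the widest gaps turns with the pseudocount: at 0.1 the log2 fold changes were -5.58 for prx97, -3.89 for prx32 and -3.61 for prx71. In the authors' deposited table, which gives fold changes as OE13 over OE13-2KR/oswox13-1, prx71 is marked up with a log2 fold change of 2.77 and an adjusted p of 0.00791.

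Next on that scale was prx97 (Os07g0104100, chromosome 7, 236594 to 237329, plus strand), a small gene whose description names the family. It was nearly silent in OE13-2KR/oswox13-1, at 0.185 FPKM in replicate 1 and listed at 0 in replicate 2, and had 4.51 and 14.0 FPKM in OE13. The gap was -3.06 on the log2 scale (SE 0.50, limma adjusted p = 0.187), and between -3.78 and -2.34 with 1 library left out. Close behind was prx32 (Os02g0833900, chromosome 2, 35875161 to 35876977, plus strand), described as similar to peroxidase 64, which in Arabidopsis takes part in laying down the lignin of the Casparian strip. It had 0.588 and 0.0547 FPKM in OE13-2KR/oswox13-1, against 3.72 and 6.00 FPKM in OE13 (-2.15, SE 0.33, limma adjusted p = 0.187). Genes of the opposite strand overlap 72.3% of prx32, and without strand their reads and its own cannot be separated. Both genes separated the lines in every library, and both passed the filter through OE13.

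In a tandem trio on chromosome 2 both OE13-2KR/oswox13-1 libraries stood below both OE13 libraries for every gene. The same held for 32.8% of all genes tested and for 27.3% of all genes in the table. The trio is too small for the rule on clusters and was grouped after its values were seen, so its shared direction supports nothing. The middle gene, prx26 (Os02g0236800, 7760994 to 7762414, plus strand), had 5.15 and 2.45 FPKM in OE13-2KR/oswox13-1, against 13.2 and 17.2 FPKM in OE13 (-1.80, SE 0.34, limma adjusted p = 0.187). Its neighbour prx27 (Os02g0236600, 7751287 to 7753674, plus strand), described as peroxidase P7, passed the filter through OE13 and had 0.903 and 0.389 FPKM in OE13-2KR/oswox13-1, against 2.14 and 2.57 FPKM in OE13 (-1.04, SE 0.26, limma adjusted p = 0.194; -1.80 with a pseudocount of 0.1). The third, prx25, described as similar to peroxidase 52, was under the filter and is named after its values were seen. Its OE13-2KR/oswox13-1 libraries were listed at 0 and 0.101 FPKM, against 0.398 and 0.701 FPKM for OE13. An opposite-strand gene overlaps 82.6% of prx25.

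The gene prx138 (Os12g0530100, chromosome 12, 20890100 to 20899533, minus strand), described as similar to Arabidopsis peroxidase 24, had, for its level, the closest OE13 libraries of the 10. It stood at 11.4 and 7.92 FPKM in OE13-2KR/oswox13-1, against 21.9 and 22.7 FPKM in OE13 (-1.15, SE 0.23, limma adjusted p = 0.187). For prx89 (Os06g0681600, chromosome 6, 28414034 to 28425443, plus strand) the values were 18.2 and 5.86 FPKM in OE13-2KR/oswox13-1, against 32.3 and 44.3 FPKM in OE13 (-1.76, SE 0.51, limma adjusted p = 0.203). Leaving out OE13-2KR/oswox13-1 replicate 2 put the gap of prx89 at -1.02 and leaving out replicate 1 of that line at -2.50, and its unadjusted p was 0.0616 without OE13 replicate 2. The gene prx4 (Os01g0270300, chromosome 1, 9339815 to 9342240, plus strand), described as similar to a cationic peroxidase, had 2.03 and 3.12 FPKM in OE13-2KR/oswox13-1, against 5.49 and 6.22 FPKM in OE13 (-0.95, SE 0.25, limma adjusted p = 0.195). Without OE13 replicate 2 its unadjusted p was 0.0647.

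The last pair of the 10, prx72 and prx75, lay outside the rule for named genes and was added after the values were seen. The gene prx72 (Os05g0162000) had 1.78 and 0.897 FPKM in OE13-2KR/oswox13-1, against 2.996 and 7.59 FPKM in OE13 (-1.35, SE 0.43, limma adjusted p = 0.213). For prx75 (Os05g0499400) the values were 2.49 and 1.87 FPKM in OE13-2KR/oswox13-1, against 4.22 and 10.8 FPKM in OE13 (-1.31, SE 0.43, limma adjusted p = 0.215). Both leaned on OE13 replicate 2: without it the log2 fold changes were -0.80 and -0.72, with an unadjusted p of 0.0857 and 0.0892. The unadjusted p was 0.109 for prx72 and 0.0997 for prx75 without OE13-2KR/oswox13-1 replicate 2, and 0.0563 for prx75 without replicate 1 of that line. Opposite-strand overlap takes up 52.6% of prx75.

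The 2 higher genes were prx30 and POX8.1. The gene prx30 (Os02g0240100, chromosome 2, 7938411 to 7939811, plus strand), described as similar to peroxidase 2, was among the 8 most abundant. It stood at 107 and 54.5 FPKM in OE13-2KR/oswox13-1, against 21.6 and 43.9 FPKM in OE13 (1.29, SE 0.46, limma adjusted p = 0.227). The lines did not overlap, though the lower OE13-2KR/oswox13-1 library and the higher OE13 library lay close together. Its log2 fold change was 0.80 or 0.79 when replicate 1 of OE13-2KR/oswox13-1 or of OE13 was left out, with an unadjusted p of 0.155 and 0.143, and its unadjusted p was 0.0601 with a replicate block. Its tandem neighbour prx29 had 11.5 and 11.9 FPKM in OE13-2KR/oswox13-1, against 2.94 and 12.3 FPKM in OE13, so only OE13 replicate 1 stood apart (0.81, SE 0.57, limma adjusted p = 0.452). Without that library the sign of prx29 turned, to -0.07.

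POX8.1 (Os07g0677100, chromosome 7, 28669498 to 28671384, plus strand) belongs to a set of rice peroxidase genes named in work on the response to bacterial blight. It had 5.30 and 2.58 FPKM in OE13-2KR/oswox13-1, against 0.905 and 1.36 FPKM in OE13 (1.17, SE 0.34, limma adjusted p = 0.205). When OE13-2KR/oswox13-1 replicate 1 was left out its log2 fold change was 0.76 and its unadjusted p 0.0591, and the unadjusted p was 0.0742 without OE13 replicate 1. The neighbours of the same name did not share its direction. POX22.3 stood at 5.35 and 5.52 FPKM in OE13-2KR/oswox13-1, against 6.27 and 5.37 FPKM in OE13, with all 4 libraries close together. POX5.1 had 5.37 and 4.81 FPKM in OE13-2KR/oswox13-1, against 3.28 and 12.5 FPKM in OE13, an overlap of the lines, and 84.3% of it is overlapped from the opposite strand.

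**Figure D3:**
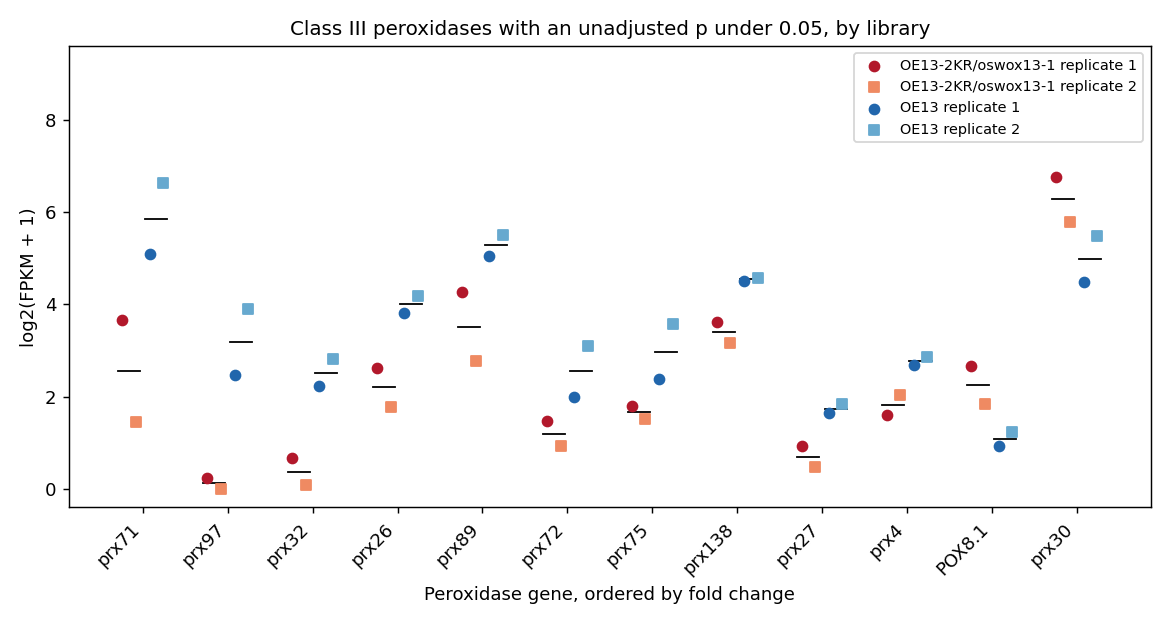
Log2(FPKM + 1) (vertical axis) of the 12 class III peroxidases with an unadjusted p under 0.05 (horizontal axis, ordered by fold change), with 1 point per library and a short line at the mean of each line. From prx71 to prx4 both OE13-2KR/oswox13-1 points lie below both OE13 points, and for POX8.1 and prx30 both lie above them.

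The other 6 of the 8 genes with the smallest p in the higher direction had no clear gap between the lines. Besides prx29 and prx20 these were Pox, prx56, prx51 and prx130, and the sign of each turned when 1 library was left out. Pox (Os12g0112000) had 7.09 and 23.2 FPKM in OE13-2KR/oswox13-1, against 11.1 and 7.31 FPKM in OE13. The gene prx130 (Os11g0112400) showed the same order of libraries, with 2.21 and 7.04 FPKM in OE13-2KR/oswox13-1, against 4.42 and 2.87 FPKM in OE13. They stand near the ends of chromosomes 12 and 11, which in rice hold a recent duplicated segment, so the reads of such copies may be shared between them and both values are uncertain. The log2 fold changes were 0.48 (SE 0.55) for Pox and 0.15 (SE 0.48) for prx130, and without OE13-2KR/oswox13-1 replicate 2 they were -0.31 and -0.51. For prx56 the log2 fold change was 0.24 (SE 0.36) and for prx51, of which 76.9% is overlapped from the opposite strand, it was 0.12 (SE 0.31). Without OE13-2KR/oswox13-1 replicate 1 these were -0.19 and -0.22.

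Some genes had wide mean gaps but did not reach an unadjusted p under 0.05. PRX45 (Os03g0368900) had 0.910 and 0.225 FPKM in OE13-2KR/oswox13-1, against 1.37 and 9.99 FPKM in OE13, so its gap came mainly from OE13 replicate 2. OsPOD (Os01g0294700), described as a haem peroxidase, had 26.6 and 6.98 FPKM in OE13-2KR/oswox13-1, against 34.4 and 42.1 FPKM in OE13. The log2 fold changes were -1.74 (SE 0.74) and -1.40 (SE 0.58), with a limma adjusted p of 0.272 and 0.266. Both were named after their values were seen.

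The libraries of a line differed for this family. OE13 replicate 2 was the highest library for 28 of the 41 tested genes (68.3%), beside 31.4% of all genes tested. OE13-2KR/oswox13-1 replicate 2 was the lowest for 21 (51.2%), beside 39.2% of all genes tested. Among the 10 lower genes OE13 replicate 2 was the highest for all 10 and OE13-2KR/oswox13-1 replicate 2 the lowest for 9, the exception being prx4. The lines did not overlap for these 10, so the highest library had to be of OE13 and the lowest of OE13-2KR/oswox13-1. The same shares among all lower genes were not computed. With OE13 replicate 2 left out, 27 of the 41 still had a negative log2 fold change and 14 a positive one, with a median of -0.26.

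Neighbouring genes often differed widely in level. The 93 genes lie on all 12 chromosomes, with the most on chromosome 6, which holds 15, and the fewest on chromosome 8, which holds 1. Neighbouring starts at most 50000 bases apart put 57 of them into 19 tandem clusters, of which 5 hold 4 or more genes. In the chromosome 4 cluster, the abundant prx61 stands between prx60, at 0.174 and 0.438 FPKM in OE13-2KR/oswox13-1, against 0.285 and 0.199 FPKM in OE13, and prx62. The sixth gene of that cluster, prx64, had 0.0364 and 0.0355 FPKM in OE13-2KR/oswox13-1 and was listed at 0 in both OE13 libraries. The fifth, prx63, was even only within OE13-2KR/oswox13-1, at 4.25 and 4.32 FPKM, against 3.30 and 5.22 FPKM in OE13, an overlap of the lines.

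Of these 5, the chromosome 5 cluster held the widest contrast between the lines. At its ends stand prx71 and prx65, and prx65 (Os05g0134400) had 22.04 and 6.70 FPKM in OE13-2KR/oswox13-1, against 25.8 and 54.1 FPKM in OE13 (-1.53, SE 0.61, limma adjusted p = 0.251). With 1 library left out prx65 ran from -2.32 to -0.74, the smaller gap when OE13-2KR/oswox13-1 replicate 2 was left out. Between them, prx66 and prx69 were listed at 0 in every library, and prx70 had 1.07 and 1.71 FPKM in OE13-2KR/oswox13-1, against 0.950 and 2.09 FPKM in OE13. The summed FPKM of this cluster was 34.8 and 10.2 in OE13-2KR/oswox13-1, against 59.7 and 154 in OE13. Both OE13 sums lay above both OE13-2KR/oswox13-1 sums.

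On chromosome 1 the genes prx12 and prx14 of the cluster were under 1 FPKM in every library, and the last was the abundant prx16. Os01g0326300, a haem peroxidase family gene in this cluster, was the steadiest of them, at 15.2 and 16.8 FPKM in OE13-2KR/oswox13-1, against 16.4 and 16.5 FPKM in OE13. The next, prx15, had 28.5 and 35.5 FPKM in OE13-2KR/oswox13-1, against 29.02 and 50.8 FPKM in OE13, with 90.4% of it overlapped from the opposite strand. In the chromosome 6 cluster of 4 genes only prx90, described as similar to Arabidopsis peroxidase 16, was well detected, at 31.7 and 8.43 FPKM in OE13-2KR/oswox13-1, against 28.3 and 43.6 FPKM in OE13. Opposite-strand overlap takes up 86.3% of prx90. The other genes of that cluster, prx91, prx92 and prx93, averaged under 1 FPKM. On chromosome 7, POX3006 was close to 0 among detected neighbours. There prx109 had 1.94 and 1.35 FPKM in OE13-2KR/oswox13-1, against 1.93 and 1.245 FPKM in OE13. At the end of that cluster prx115, described as a cationic peroxidase, had 8.66 and 8.04 FPKM in OE13-2KR/oswox13-1, against 6.80 and 11.1 FPKM in OE13.

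**Figure D4:**
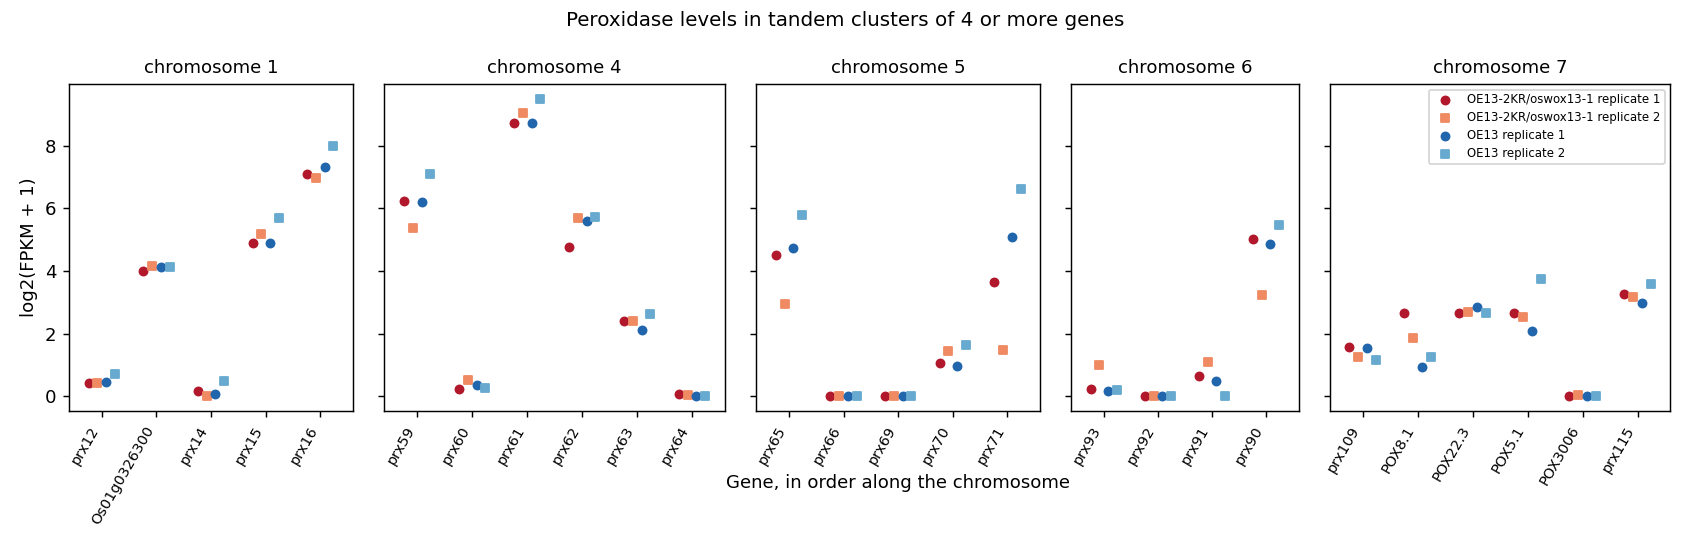
Log2(FPKM + 1) (vertical axis) of each gene in the 5 tandem clusters of 4 or more class III peroxidases, in order along the chromosome (horizontal axis), with 1 point per library. Genes above 100 FPKM stand beside genes close to 0, as prx61 beside prx60, and the lines part most at prx71 and prx65 on chromosome 5.

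In the authors' deposited table of genes marked up, meaning higher in OE13, 10 of the 93 (10.8%) were found, beside 3.3% of all genes in the expression table. Of the 1112 genes of that list that could be paired with the expression table, 1107 had a higher mean FPKM in OE13. Besides prx71, the peroxidases in the authors' deposited table were prx75, PRX45, OsPOD, prx26, prx138, prx89, prx32, prx16 and prx87. Their adjusted p in that table ran from 0.102 for prx75 to 0.639 for prx87. Of the lower genes described above, prx97, prx27, prx4 and prx72 were not found among the paired genes of that list. The list compares the same lines in the same series, so it is not independent of the values given here. The authors' list of genes marked down uses identifiers that could not be paired, and was not used here.

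Of the 3 genes that are not class III peroxidases, OsPrxII had 106 and 118 FPKM in OE13-2KR/oswox13-1, against 123 and 126 FPKM in OE13, and OsPrx, described as similar to peroxiredoxin Q, had 39.5 and 22.7 FPKM in OE13-2KR/oswox13-1, against 56.3 and 47.3 FPKM in OE13. OsAPx6 had 23.4 and 27.7 FPKM in OE13-2KR/oswox13-1, against 21.6 and 17.1 FPKM in OE13. The log2 fold changes were -0.15, -0.77 and 0.38 (limma adjusted p of 0.636, 0.247 and 0.357). A further 16 genes carry the class III enzyme number or an upper-case or mixed-case name and were not chosen by the rule, and 7 of them averaged 1 FPKM or more. The highest of these was PRX125 (Os10g0109300), at 46.9 and 24.9 FPKM in OE13-2KR/oswox13-1, against 61.6 and 68.8 FPKM in OE13. With them, in a set of 109 genes added after seeing the data, 14 of 48 tested were lower (29.2%) and 2 higher (4.17%) at an unadjusted p under 0.05. Among all genes tested the shares were 12% lower and 8% higher. Of the lower genes gained in this set, PRX39 and atp6 passed the filter through OE13, and PRX125 and PRX123 did not.

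Peroxidases use hydrogen peroxide, which NADPH oxidases and superoxide dismutases supply. The 10 tested superoxide dismutase genes, which turn superoxide into hydrogen peroxide, were all lower in mean log2 level in OE13-2KR/oswox13-1, also under both other scalings, with a median difference of -0.63. Among all genes tested 56.8% had that sign. Without replicate 1 of OE13-2KR/oswox13-1, and again without replicate 1 of OE13, 9 of the 10 were lower and 1 higher. Without a filter 10 of 12 superoxide dismutase genes were lower and 2 higher. Of the 10, 6 reached an unadjusted p under 0.05 (60%, beside 12% of all genes tested), though only 2 did without a filter on low values or without OE13 replicate 1, and 3 without replicate 2 of either line. The adjusted test was passed by 0. The list goes by description and takes in a pair of germin-type genes, OsGLP1-1 and GER4, and OsFSD1.1, described as a chloroplast type. Whether these genes bear on the hydrogen peroxide that reaches secreted peroxidases was not tested. The smallest p belonged to OsSOD4 (Os08g0561700), at 57.8 and 22.1 FPKM in OE13-2KR/oswox13-1, against 99.7 and 108 FPKM in OE13, and SOD (Os04g0573200), at 45.5 and 39.8 FPKM in OE13-2KR/oswox13-1, against 70.1 and 59.9 FPKM in OE13 (limma adjusted p of 0.205 and 0.211).

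Of 6 NADPH oxidase genes, whose enzymes make superoxide outside the cell, 2 reached an unadjusted p under 0.05 in the lower direction (33.3%, beside 12% of all genes tested) and 0 in the higher one, and the median was -0.62. The count was 1 without a filter, with median ratio rescaling, and when OE13 replicate 1 or OE13-2KR/oswox13-1 replicate 2 was left out. The median was -0.21 when OE13-2KR/oswox13-1 replicate 2 was left out. RBOHH (Os12g0541300) had 7.25 and 7.04 FPKM in OE13-2KR/oswox13-1, against 21.0 and 15.5 FPKM in OE13 (limma adjusted p = 0.187). RBOHB (Os01g0360200), the most abundant of them, had 323 and 211 FPKM in OE13-2KR/oswox13-1, against 442 and 393 FPKM in OE13 (limma adjusted p = 0.246). Both separated the lines. The genes with a positive log2 fold change, OsrbohI and rbohA, had 0.29 (SE 0.20) and 0.27 (SE 0.29).

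Laccases also oxidise monolignols. Of 19 laccase genes 5 were tested, and an unadjusted p under 0.05 was reached by 2 in the lower direction (40%, beside 12% of all genes tested) and 0 in the higher one. Both passed the filter through OE13, where they were higher, so that these counts support nothing. Without OE13-2KR/oswox13-1 replicate 2 these counts were 0 and 1. The pair consisted of OsLAC (Os05g0458600), at 0.0812 FPKM and listed at 0 in OE13-2KR/oswox13-1, against 1.114 and 3.92 FPKM in OE13, and OsLAC5 (Os01g0842500), at 1.22 and 0.374 FPKM in OE13-2KR/oswox13-1, against 2.48 and 3.82 FPKM in OE13 (limma adjusted p of 0.195 and 0.197). In the other direction OsLAC30 and OsLAC28 had log2 fold changes of 1.13 (SE 0.45) and 0.30 (SE 0.76). None of the 4 dirigent protein genes, whose products guide monolignol coupling, averaged 1 FPKM. The words for Casparian strip membrane proteins found 1 gene, the transporter gene ABCG25, and so no member of that family.

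Germin-like proteins and oxalate oxidases, wall proteins of which oxalate oxidases release hydrogen peroxide, were called about as often as all genes. Of 32 genes 10 were tested, and an unadjusted p under 0.05 was reached by 1 in each direction (10% each, beside 12% lower and 8% higher among all genes tested). The median was 0.30, and it turned to -0.26 and -0.18 without replicate 1 of OE13-2KR/oswox13-1 and of OE13. The higher was an oxalate oxidase gene listed as Osoxo4 (Os03g0694000), at 15.5 and 10.7 FPKM in OE13-2KR/oswox13-1, against 3.95 and 5.38 FPKM in OE13 (limma adjusted p = 0.187). The lower was GER7 (Os03g0804500), at 3.22 and 2.86 FPKM in OE13-2KR/oswox13-1, against 4.78 and 8.32 FPKM in OE13 (limma adjusted p = 0.222). Next to them in p, OsOxO3 had a log2 fold change of 0.74 (SE 0.30) and OsGLP1 one of -2.51 (SE 1.06).

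The markers fixed for lignifying xylem were the secondary wall cellulose synthase genes OsCesA4, CESA7 and BC6. Their summed FPKM was 16.3 and 1.21 in OE13-2KR/oswox13-1, against 49.0 and 112 in OE13, and no gene of the 3 was at 0. All 3 of 3 were lower in OE13-2KR/oswox13-1 at an unadjusted p under 0.05 (limma adjusted p of 0.194 to 0.198), beside 12% of all genes tested, and 2 of 3 were without a filter or without OE13 replicate 2. These sums put the 4 libraries in the order that 9 of the 10 lower peroxidases had, prx71 among them. The lines did not overlap for any of the 10, which were chosen as lower. Much of that order was therefore fixed by the choice, and the match supports nothing. The share of all genes with that order was not computed, and likeness between patterns was not tested. Of the 39 genes fixed as markers of dividing cells, 22 were tested. Past the unadjusted threshold lay 0 lower genes (0%, beside 12% of all genes tested) and 3 higher ones (13.6%, beside 8%). By sign 15 of the 22 were negative (68.2%, beside 56.8% of all genes tested) and 7 positive, with a median log2 fold change of -0.18. The summed FPKM of the 39 genes was 1086 and 1046 in OE13-2KR/oswox13-1, against 1161 and 1303 in OE13. Of the 9 tested genes for light-harvesting proteins and the small Rubisco subunit, 8 were negative and 1 positive, with a median of -0.58. The part of xylem cells, dividing cells or mesophyll cells in the peroxidase values was not tested.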

How the data were processed

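Leaf RNA of 2 rice lines, with 2 libraries each, was sequenced as paired-end reads of 150 nt, per the labels' protocols, although the molecule label reads genomic DNA. Per the file headers, the authors deposited FPKM for each gene in each library. The submitters' processing notes list DESeq2 1.38.3, featureCounts 2.0.0, HISAT2 2.2.1 and IRGSP 1.0, giving neither roles nor order. Gene positions were read from the deposited table, which is assumed to use IRGSP 1.0. The tool that computed the FPKM and the strand setting of the counting are not stated in the labels or headers. The authors' deposited table of genes marked up holds, per the file headers, columns for the linear fold (ratio), the log2 fold change and the raw and adjusted p-value. Besides the library columns, 2 unlabelled columns of stray cells were not used.

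Groups came from the sample titles, and columns were matched by library name. FPKM was tested as log2(FPKM + 1) with limma 3.58.1 in R 4.3.3, after a filter of a mean of at least 1 FPKM. Read depth is unknown, since whole reads could not be recovered from most low values, and counting intervals are left out. The fit over the 2 libraries of each line had 2 residual degrees of freedom and a prior of 3.30. The fit was tested on simulated data.

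The named genes were the 8 tested members with the smallest p in each direction, the 8 of highest mean, the 4 of largest fold change in each direction among those whose lines did not overlap (only 2 such genes were higher), and the tested members of tandem clusters of 4 or more; of the related families, the 2 with the smallest p in each direction. The members and lists were chosen with earlier results of these data known. Alternatives were another pseudocount (0.1), no filter, a filter of 5 FPKM, quantile normalisation, median ratio rescaling, a replicate block, each library left out, and members without a gene covering at least 50% of their span on the other strand. Sets of all 96 genes and of 109 genes were added after seeing the data.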

Additional observations from a re-analysis of the deposited data

How the results depend on the processing

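The 12 class III peroxidases with an unadjusted p under 0.05 kept the sign of their log2 fold change in all 113 values under the alternatives. The lines did not overlap for any of the 12. Leaving out a library or changing the pseudocount, the filter or the block therefore could not turn a sign, and only the 2 other scalings could. With all libraries in the fit none passed the adjusted test (limma). Of these 12, 6 kept an unadjusted p under 0.05 without a filter on low values, 11 with the replicate block and 8 to 10 with 1 library left out. Over all genes the number passing the adjusted test, 1, was 0 without a filter, 2 with quantile normalisation, 0 with the replicate block and 0 to 5 with 1 library left out. Without a filter 54 peroxidases were negative and 34 positive, with a median of -0.055, beside -0.020 for all genes. With a mean of at least 5 FPKM 20 were negative and 6 positive. At an unadjusted p under 0.05, 4 were then lower and 1 higher (limma), beside 1639 lower and 1381 higher among all genes. Quantile normalisation gave 16 positive ones and turned the median of all genes to 0.034. With 1 library left out the lower peroxidases at an unadjusted p under 0.05 numbered 7 to 16, the higher ones 0 to 3, the median ran from -0.62 to -0.26, and the log2 ratio of the sums ran from -0.89 to -0.13. The replicate block left 10 lower and 1 higher at an unadjusted p under 0.05 (limma), beside 2122 lower and 1239 higher among all genes. Deviations of libraries of the same number correlated at -0.091 over genes, and nothing in the labels pairs them.

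Signs turned in 28 of 319 values of the named genes, over 16 genes that did not reach an unadjusted p under 0.05. With quantile normalisation Os01g0326300 was at 0.065, prx70 at 0.14, POX22.3 at 0.094 and prx115 at 0.094. With median ratio rescaling Os01g0326300 was at 0.037 and prx115 at 0.019. With 1 library left out the log2 fold changes ran, for prx29 from -0.065 to 1.68, Pox from -0.31 to 1.27, prx56 from -0.19 to 0.68 and prx51 from -0.22 to 0.46. They ran, for prx130 from -0.51 to 0.81, prx20 from -0.19 to 0.34, prx61 from -0.62 to 0.17 and prx62 from -0.88 to 0.034. They ran, for Os01g0326300 from -0.11 to 0.027, prx15 from -0.66 to 0.13, prx63 from -0.23 to 0.30 and prx70 from -0.38 to 0.28. They ran, for prx109 from -0.16 to 0.23, POX22.3 from -0.18 to 0.014, POX5.1 from -1.15 to 0.51 and prx115 from -0.37 to 0.26. The cause was not tested. Depth is unknown, and low genes are the least certain.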
